A study of Mus musculus with 4 samples.

Results

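Notch signalling passes between touching cells. A ligand of the Delta-like (Dll) or Jagged (Jag) family on one cell binds a Notch receptor on the next, the receptor is cut by proteases, and its inner part enters the nucleus, joins the DNA-binding protein RBPJ and switches on target genes such as Hes1 and Nrarp. In blood formation, Notch1 is known for directing progenitors to the T lineage and for the first stem cells of the embryo, and Notch2 for marginal zone B cells. Ligands are mostly known from endothelium, stroma and thymic epithelium, and also from myeloid and dendritic cells.

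The genes described here are 10 of the 24015 symbols in the count tables, chosen by symbol and by role: the receptors Notch1, Notch2, Notch3 and Notch4, the ligands Dll1, Dll4, Jag1 and Jag2, and the target genes Hes1 and Nrarp. They were compared between 2 control and 2 caNIK RNA-seq libraries, all 4 made from mouse hematopoietic stem/progenitor cells (HSPC) purified by cell sorting. The caNIK mice came from a cross that joined the blood-cell recombinase line Vav-iCre to a Rosa locus allele, Rosa-loxp-STOP-loxp-NIK, and so made a mutant of the kinase NIK that TRAF3 cannot target. No source used here states the alleles of the controls, the ages, the sort markers or how many animals were used. Vav-iCre is known to act across the blood lineages and not in stem cells alone. The study's title names the self-renewal of hematopoietic stem cells as its question.

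Library totals lay between 18574452 and 23162766 counts. Map3k14, the gene of NIK, had 582 and 588 counts in control and 3305 and 3989 in caNIK, the direction the labels call for, though the counts do not separate the inserted copy from the native gene. All 10 stem and progenitor markers were detected in every library, among them Kit and Cd34. Markers of other blood lineages were detected too and differed between the groups: the summed level of 8 mast cell and basophil genes was 58.3 and 92.7 CPM (counts divided by TMM-scaled library size) in control and 2282 and 1191 CPM in caNIK, with 6 of 8 past the threshold. The 8 stromal genes summed to 64.5 CPM in control replicate 1, against 189 in control replicate 2 and 243 and 161 in the caNIK libraries. In such bulk samples, a change in the number of cells of a type and a change in RNA per cell cannot be told apart.

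Of the 10 genes, 4 were higher in caNIK HSPC (Dll1, Dll4, Jag1 and Hes1), 1 was lower (Nrarp) and 5 did not pass, all 4 receptors and Jag2. Without caNIK replicate 1, 2 were higher and 4 lower, and without control replicate 1, 3 were higher and 2 lower. The threshold was an adjusted p under 0.05 (Benjamini-Hochberg, over all 14191 genes tested) in edgeR's quasi-likelihood test. Among all tested genes 13.8% were called higher and 8.21% lower, 22.0% in all. The CPM of the groups did not overlap for 8 of the 10 genes, but neither did they for 64.9% of all tested genes. The median log2 fold change of the 10 genes was 0.59, against 0.00 over all tested genes. It joined unlike parts, since the median was -0.005 for the receptors, 3.84 for the ligands and 0.20 for the targets.

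**Figure D1:**
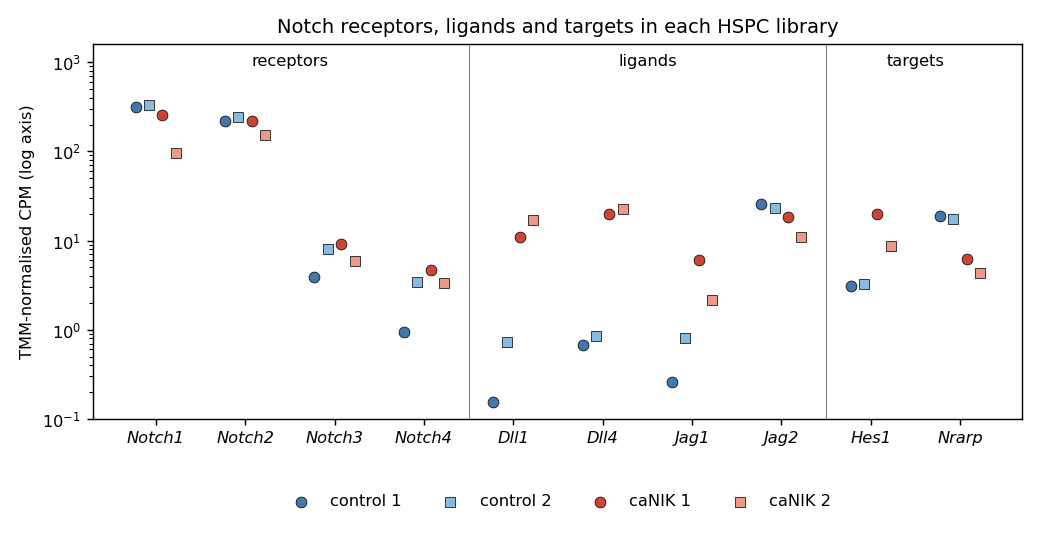
TMM-normalised CPM (log axis) of each of the 10 genes in the 4 libraries, with control in blue, caNIK in red, circles for replicate 1 and squares for replicate 2. Dll1 and Dll4 lie below 1 CPM in both control libraries and at 11.0 to 22.5 CPM in both caNIK libraries, whereas Notch1 and Notch2 lie near or above 100 CPM in every library.

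Bases before the start site are shown for the ligand with the steadiest rise (Dll4), the target that fell (Nrarp) and Notch2, which with Notch1 made nearly all receptor transcripts, since the NF-kB factors that NIK activates and the RBPJ factor of the Notch pathway both act on promoters. Of the 10 genes, 9 had an entry in the RefSeq promoter table (GRCm38.p6) and 1, Hes1, had none. Each window holds the 250 bases before the RefSeq start, 5′ to 3′ on the gene's strand. Capitals mark matches on either strand to the NF-kB consensus GGGRNWYYCC (R is A or G, N any base, W A or T, Y C or T).
Dll4 (chr2:119325534-119325783, + strand): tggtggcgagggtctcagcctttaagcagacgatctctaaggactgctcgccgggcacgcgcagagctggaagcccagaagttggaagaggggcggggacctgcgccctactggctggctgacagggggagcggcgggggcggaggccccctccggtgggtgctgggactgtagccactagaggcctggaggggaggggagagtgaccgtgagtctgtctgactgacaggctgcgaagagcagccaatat
Nrarp (chr2:25180508-25180757, + strand): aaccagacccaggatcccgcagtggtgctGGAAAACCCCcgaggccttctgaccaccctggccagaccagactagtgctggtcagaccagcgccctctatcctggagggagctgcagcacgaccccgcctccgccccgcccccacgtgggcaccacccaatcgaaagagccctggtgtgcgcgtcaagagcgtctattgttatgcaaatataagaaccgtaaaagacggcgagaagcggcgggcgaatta
Notch2 (chr3:98013288-98013537, + strand): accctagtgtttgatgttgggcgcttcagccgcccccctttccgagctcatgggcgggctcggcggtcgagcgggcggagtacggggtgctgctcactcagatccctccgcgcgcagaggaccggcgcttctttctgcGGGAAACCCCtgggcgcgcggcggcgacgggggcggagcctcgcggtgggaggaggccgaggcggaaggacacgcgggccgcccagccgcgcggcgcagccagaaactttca
The NF-kB consensus was matched in the windows of Nrarp, 221 bases before the start, and Notch2, 112 bases before it, and in those of no other member. The Nrarp match lay on the strand opposite to the gene, so its capitals show the reverse complement of the motif, and the Notch2 match read on both strands. Of 32851 windows of this length in the table, 3.9% held a match on either strand. The RBPJ core TGGGAA, read on both strands, stood in none of the members' windows and in 21.6% of all windows. Neither Dll4 nor Dll1, whose 2 windows were both read, held either motif in these bases, which says nothing about sites farther away.

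Notch1 was the most abundant receptor in control HSPC, and no receptor passed the test: none had an unadjusted p under 0.05 in edgeR, and none was called by DESeq2 or limma-voom. Notch1, the receptor that starts T lineage commitment, had 6064 and 7858 counts in control and 4704 and 2010 in caNIK, or 315 and 335 against 253 and 96.9 CPM. Both caNIK libraries were below both controls, but they stood far apart from each other, with replicate 2 much the lower. The log2 fold change was -0.89 ± 0.40 (SE; edgeR adjusted p = 0.16). Without caNIK replicate 1 it was -1.74 (edgeR adjusted p = 0.00098), and without caNIK replicate 2 it was -0.38 and did not pass. It also passed without control replicate 1 and with every gene of at least 1 read tested (edgeR adjusted p = 0.048 and 0.028). The size of the Notch1 difference therefore rested on which caNIK library was read.

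Notch2, the receptor needed for marginal zone B cells, had 220 and 242 CPM in control and 216 and 153 CPM in caNIK. Only caNIK replicate 2 stood clearly below the controls, since caNIK replicate 1 differed from control replicate 1 by less than the controls differed from each other. The log2 fold change was -0.33 ± 0.20 (edgeR adjusted p = 0.29), and it passed without caNIK replicate 1 (-0.59; edgeR adjusted p = 0.035). The share of Notch1 among the counts of Notch1 and Notch2, which no scaling can move, was 58.8% (exact 95% binomial interval 57.8 to 59.7) and 58.1% (57.2 to 58.9) in control. It was 53.9% (52.8 to 54.9) and 38.8% (37.5 to 40.2) in caNIK. Both caNIK shares lay below both control shares, and the caNIK libraries differed from each other by more than counting error.

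Notch3 and Notch4, known mainly from vessel walls (mural cells and endothelium), were scarce and overlapped between the groups. Notch3 had 3.89 and 8.05 CPM in control and 9.08 and 5.83 CPM in caNIK (log2 fold change 0.32 ± 0.48; edgeR adjusted p = 0.69). Notch4 had 0.934 and 3.45 CPM in control and 4.67 and 3.33 CPM in caNIK (0.86 ± 0.69; edgeR adjusted p = 0.42). In both genes control replicate 1 was the lowest library and caNIK replicate 1 the highest. The summed stromal markers had the same lowest and highest library, but not each of them did. The stromal marker Pdgfrb had 51.2 and 51.1 CPM in control and 57.2 and 29.2 CPM in caNIK. The summed endothelial markers were highest in control replicate 2 (335 CPM) and lowest in caNIK replicate 2 (84.4 CPM). The part of stromal or endothelial transcripts in the Notch3 and Notch4 values was not tested. Without control replicate 1 the Notch3 difference turned to -0.13 and that of Notch4 was 0.19, and without control replicate 2 they were 0.94 and 2.09.

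Per length of exon, the receptors could be set beside each other. Notch1 stood at 33.1 and 35.3 CPM per kb in control and at 26.6 and 10.2 in caNIK, and Notch2 at 21.0 and 23.0 in control and 20.6 and 14.5 in caNIK. Notch1 lay above Notch2 in both controls and in caNIK replicate 1, and below it in caNIK replicate 2. Notch3 and Notch4 together gave less than Notch1 or Notch2 in every library: Notch3 made 0.886% and 1.68% of the per-length receptor sum in control and 2.31% and 2.8% in caNIK, and Notch4 0.259% and 0.875% in control and 1.44% and 1.94% in caNIK. The order of the levels was thus Notch1, Notch2, Notch3, Notch4 in the control libraries and in caNIK replicate 1, with Notch1 and Notch2 exchanged in caNIK replicate 2.

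Of the 4 ligands, 3 rose and Jag2 did not pass. Dll4, the Delta-like ligand through which thymic epithelium acts on T progenitors, was counted 13 and 20 times in control and 370 and 467 times in caNIK. Its level was 0.674 and 0.852 CPM in control and 19.9 and 22.5 CPM in caNIK, so the groups were far apart and the libraries of each group close together. Dll4 rose 27.4-fold (log2 fold change 4.78 ± 0.35; edgeR adjusted p = 0.00042). It passed in all 12 alternatives, with log2 fold changes from 4.61 to 4.96. An annotated transcript, Gm14207, on the opposite strand overlaps 214 bases of Dll4 exons in GENCODE M21. It had 6 and 2 counts in control and 42 and 75 in caNIK, and rose by 3.89 ± 0.83 on the log2 scale (edgeR adjusted p = 0.019). Without a stated strand setting, reads of the 2 genes in the shared bases cannot be told apart.

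Dll1, the Delta-like ligand known from the marginal zone B cell niche, was counted 3 and 17 times in control and 205 and 355 times in caNIK. That was 0.156 and 0.724 CPM in control and 11.0 and 17.1 CPM in caNIK, with every caNIK value far above both controls. Dll1 rose 30.6-fold (log2 fold change 4.94 ± 0.68; edgeR adjusted p = 0.0039) and passed in all 12 alternatives. The few control counts leave its size loose, at 4.25 without control replicate 1 and 6.44 without control replicate 2. An annotated transcript on the opposite strand, A930024N18Rik, overlaps 624 bases of Dll1 exons in GENCODE M21. As for Dll4, reads in the shared bases cannot be told apart without a stated strand setting. Dll1 and Dll4 were higher in caNIK replicate 2 than in replicate 1, by 0.63 and 0.18 on the log2 scale, whereas the other 8 genes were lower there.

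Jag1, a Jagged ligand of endothelium and bone marrow stroma, was counted 5 and 19 times in control and 112 and 45 times in caNIK. Its CPM values were 0.259 and 0.81 in control and 6.01 and 2.17 in caNIK. The groups did not overlap, but the libraries within each group differed more than 2-fold. Jag1 rose by 2.90 ± 0.82 on the log2 scale (edgeR adjusted p = 0.048), just inside the threshold. It did not pass without control replicate 1 (2.30; edgeR adjusted p = 0.067), without caNIK replicate 1 (2.0; 0.25), with library totals in place of TMM (2.86; 0.058) or in limma-voom (2.83; adjusted p = 0.068).

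Jag2, the other Jagged ligand, was counted 495 and 547 times in control and 342 and 226 times in caNIK, or 25.7 and 23.3 against 18.4 and 10.9 CPM. Both caNIK libraries were below both controls. The log2 fold change of -0.74 ± 0.30 did not pass (edgeR adjusted p = 0.13), although it did without caNIK replicate 1 (-1.16; edgeR adjusted p = 0.028). Jag2 thus lay on the other side of 0 from the ligands that rose.

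Per length, Jag2 made nearly the whole ligand pool of control HSPC and a minor share in caNIK HSPC. It was 94.9% and 88.8% of the summed CPM per kb of the 4 ligands in control, and 27.6% and 16.0% in caNIK. Dll4 made 3.4% and 4.43% in control and 40.6% and 45.1% in caNIK, and Dll1 0.82% and 3.94% in control and 23.6% and 35.9% in caNIK. Jag1 made at most 8.22%, in caNIK replicate 1. The ligand sum was 5.30 and 5.14 CPM per kb in control and 13.0 and 13.3 in caNIK. The receptor sum was 54.8 and 59.9 CPM per kb in control and 49.1 and 26.0 in caNIK, so receptor transcripts exceeded ligand transcripts in every library. The order of the ligand levels was Jag2 first in both controls and Dll4 first in both caNIK libraries. In caNIK, Dll4 stood at 5.30 and 6.01 CPM per kb and Dll1 at 3.07 and 4.78. The gap between these neighbours was about as large as that between the Dll1 values.

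**Figure D2:**
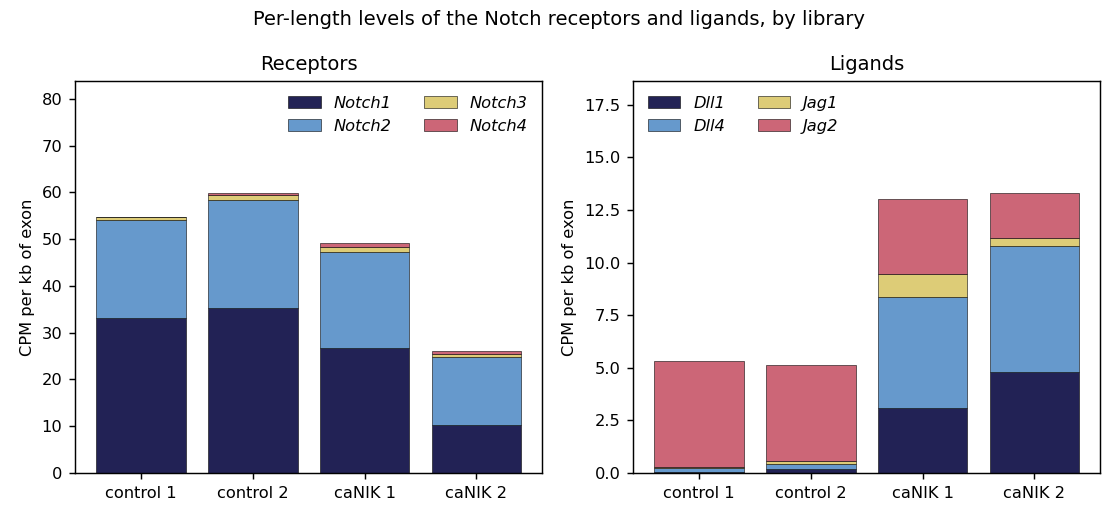
Stacked bars of CPM per kb of exon for the 4 receptors (left) and the 4 ligands (right) in each library, on linear axes from 0. Jag2 fills most of the ligand bar in both control libraries, and Dll4 with Dll1 makes 64.2% and 81.1% of it in the caNIK libraries, while the receptor bar of caNIK replicate 2 is the shortest, at 26.0.

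Markers of cells known to carry these ligands were read beside them. Of 8 endothelial markers 3 were lower, Tie1, Eng and Emcn, and none was higher (nor at an unadjusted p under 0.05, nor in DESeq2 or limma-voom), and their sum was 310 and 335 CPM in control and 130 and 84.4 CPM in caNIK. Most of the control sum was Eng, Pecam1 and Tie1, with control means of 145, 79.5 and 52.4 CPM. Whether these transcripts came from endothelial cells or from the HSPC themselves was not tested. Cdh5, Kdr and Flt1, at control means of 3.57, 3.82 and 2.27 CPM, overlapped between the groups. Their log2 fold changes of -0.86, 0.22 and -0.56 did not pass. Of 7 tested stromal markers none passed in edgeR in either direction, also at an unadjusted p under 0.05, nor in DESeq2 or limma-voom (median log2 fold change -0.13). Of 7 tested dendritic cell markers, 4 rose (Itgax, Zbtb46, Xcr1 and Batf3) and 1 fell, the receptor gene Flt3. By limma-voom 2 were higher and 1 lower. The summed level of all 8 listed went from 606 and 490 CPM to 188 and 114 CPM, most of it Flt3, which progenitors also express. Among epithelial markers Krt5 and Krt14 were at 0 in all libraries, Foxn1, the factor of thymic epithelium, had 16 counts in caNIK replicate 1 and 0 in the others, Trp63 rose and Krt18 fell, with a sum of 111 and 34.9 CPM in control and 45.3 and 28.1 CPM in caNIK. The 8 macrophage markers summed to 43.9 and 88.9 CPM in control and 106 and 149 CPM in caNIK (median log2 fold change 0.92). None of them passed in edgeR, although 3 were higher at an unadjusted p under 0.05, and 2 were called higher by DESeq2 and 1 by limma-voom. The part of endothelial, stromal, dendritic, epithelial, macrophage or mast cell transcripts in the ligand values was not tested.

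The 2 target genes changed in opposite directions. Hes1, a repressor of the basic helix-loop-helix (bHLH) family that Notch induces in many tissues, was counted 60 and 77 times in control and 374 and 181 times in caNIK. Its level was 3.11 and 3.28 CPM in control and 20.1 and 8.73 CPM in caNIK. The controls were nearly equal, and both caNIK libraries stood above them but differed from each other by more than 2-fold. Hes1 rose by 2.17 ± 0.47 on the log2 scale (edgeR adjusted p = 0.02). Without caNIK replicate 1 the difference was 1.45 and did not pass (edgeR adjusted p = 0.068), and without caNIK replicate 2 it was 2.63. The summed mast cell and T cell markers were likewise higher in caNIK replicate 1 than in replicate 2 (2282 against 1191 CPM, and 209 against 84.2 CPM). So were the summed stem and progenitor, mature B cell, dendritic, endothelial, stromal and epithelial markers. The erythroid and macrophage sums were lower in caNIK replicate 1 than in replicate 2 (1211 against 1889 CPM, and 106 against 149 CPM). The T cell sum in control was 130 and 62.8 CPM, and none of its 8 genes passed in edgeR, although 2 were higher at an unadjusted p under 0.05 and 2 in DESeq2 and 1 in limma-voom were called higher. The part of any of these cell types in the Hes1 values was not tested.

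Nrarp, a small ankyrin-repeat protein that Notch induces and that acts back on the Notch complex as an inhibitor, was counted 362 and 406 times in control and 117 and 90 times in caNIK. It fell from 18.8 and 17.3 CPM in control to 6.28 and 4.34 CPM in caNIK, with libraries of each group close together and no overlap. The log2 fold change was -1.76 ± 0.32 (edgeR adjusted p = 0.01), 3.4-fold lower, and it passed in all 12 alternatives with values from -2.05 to -1.54. In GENCODE M21 an antisense transcript, Gm38287, overlaps 2051 bases of the Nrarp exon, and without a stated strand setting its reads cannot be told apart from those of Nrarp. The number of Hes1 counts per Nrarp count, which does not depend on the scaling of libraries, was 0.166 and 0.19 in control and 3.20 and 2.01 in caNIK.

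**Figure D3:**
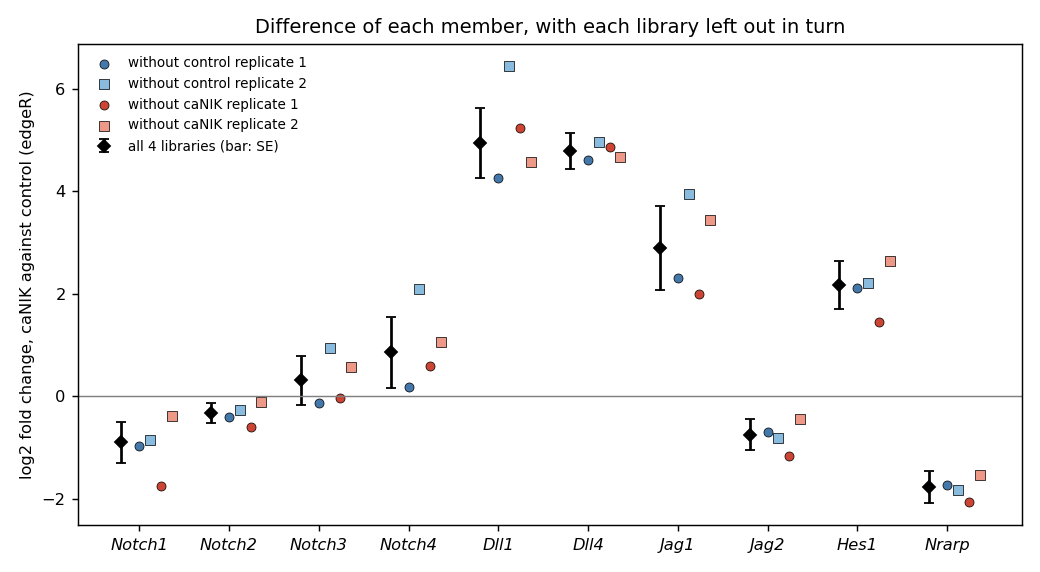
Log2 fold change of each of the 10 genes, caNIK against control, with all 4 libraries (black diamonds, bars are SE) and with each library left out in turn (coloured points). Dll4 stays between 4.61 and 4.96 and Nrarp below -1.5 in every fit shown, whereas the Notch1 point without caNIK replicate 1 lies at -1.74 and the one without caNIK replicate 2 at -0.38.

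The rest of the pathway was given by 9 lists that hold 72 further genes, of which 64 were tested. Of these, 6 were higher, 7 were lower and 51 did not pass, and their median log2 fold change was -0.02. These counts are to be read against 13.8% higher and 8.21% lower among all tested genes.

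Rbpj, the DNA-binding partner of all 4 receptors, had 121 and 124 CPM in control and 174 and 157 CPM in caNIK. The difference of 0.43 ± 0.14 on the log2 scale did not pass (edgeR adjusted p = 0.078), although it did in DESeq2 (adjusted p = 0.037). Of the 8 genes of the nuclear complex, 1 passed: Maml3, a mastermind co-activator, fell from 57.6 and 58.2 CPM to 14.2 and 15.8 CPM (log2 fold change -1.95 ± 0.18; edgeR adjusted p = 0.00085). Maml1 and Maml2, its relatives, had log2 fold changes of -0.12 and -0.88 that did not pass. Of 11 corepressor genes, Tle1, a Groucho-type corepressor with which HES proteins act, rose from 16.4 and 20.2 CPM to 96.1 and 169 CPM (2.86 ± 0.30), and L3mbtl3, which acts with RBPJ in repression, fell by 1.31 ± 0.27. The other 9, Spen and Ncor1 among them, did not pass.

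Genes that shape the receptor before and after it binds a ligand mostly did not pass. Of 5 glycosylation genes 1 was lower: Mfng, one of the Fringe enzymes that alter which ligands a receptor answers to, fell from 139 and 117 CPM to 59.2 and 50.6 CPM (-1.22 ± 0.17; edgeR adjusted p = 0.0041). Lfng and Rfng, the other Fringe genes, had -0.48 and -0.42 and did not pass. Of 10 cleavage genes, from Furin and the ADAM proteases to the gamma-secretase subunits, 1 passed, the subunit gene Aph1c, which fell by 2.60 ± 0.50. It has a near-identical copy, Aph1b (0.12 ± 0.70), so the split of reads between them is uncertain. Of 4 genes of ligand uptake in the sending cell, Mib1, Mib2, Neurl1a and Neurl1b, none passed in edgeR, with 1 lower at an unadjusted p under 0.05, 1 called lower by DESeq2 and none by limma-voom.

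Of 11 genes of receptor turnover, 1 rose and 1 fell. Dtx4, a Deltex ubiquitin ligase, fell from 26.2 and 40.8 CPM to 4.46 and 2.12 CPM (-3.35 ± 0.43; edgeR adjusted p = 0.0029). Dtx3l, which pairs with Parp9 and is known to respond to interferon, rose by 1.22 ± 0.18. Dtx1, a common readout of Notch in lymphocytes, had 12.9 and 3.32 CPM in control and 6.77 and 3.95 CPM in caNIK and did not pass (-0.60 ± 0.66; edgeR adjusted p = 0.57). Its highest library was control replicate 1, and without that library its difference turned to 0.67.

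Among the other bHLH genes of the Hes and Hey families, 3 of 8 had enough counts to be tested and Hes1 was not joined by a second riser that passed. Hes6, which is known to oppose HES1, fell by 0.77 ± 0.17 on the log2 scale (edgeR adjusted p = 0.023), and did not pass without control replicate 1 (adjusted p = 0.11) or without caNIK replicate 2 (0.065). Hes5 had 72 and 73 counts in control and 42 and 18 in caNIK (-1.13 ± 0.63; edgeR adjusted p = 0.25). Hey1 had 2 counts in the control libraries together and 22 in the caNIK libraries, a ratio of 11.9 with an exact counting interval of 2.94 to 105, and Hes7 had 5 and 35 counts (2.91 ± 1.16; edgeR adjusted p = 0.13).

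Of the 6 other ligands and ligand-like genes, 3 were tested. Dlk1, a Delta-like membrane protein without the Notch-binding DSL domain, known from fetal progenitors, rose from 8.19 and 8.61 CPM to 64.1 and 71.9 CPM (3.02 ± 0.19; edgeR adjusted p = 0.00022). Its relative Dlk2 had 3 counts in control and 106 in caNIK, a ratio of 38.4 with an exact counting interval of 12.8 to 189, and passed (edgeR adjusted p = 0.02), though not without either caNIK library (adjusted p = 0.086 and 0.054). Dll3 had 9 and 18 counts, a ratio of 2.17 with an interval of 0.927 to 5.49, and was not tested. Such intervals cover counting error only.

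Of 9 genes known to follow Notch in lymphoid cells, 2 rose, 1 fell and 6 did not pass (median log2 fold change 0.61). Tcf7, a T lineage factor, went from 18.7 and 13.3 CPM to 175 and 113 CPM, and Cr2, the complement receptor of marginal zone B cells, from 0.934 and 0.81 CPM to 6.66 and 4.82 CPM (2.71 ± 0.51; edgeR adjusted p = 0.012). Myc fell by 0.85 ± 0.16 (edgeR adjusted p = 0.011). Ptcra, Il2ra, Gata3, Bcl11b, Il7r and Id3 did not pass, with log2 fold changes from -0.45 for Id3 to 1.06 for Il7r.

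**Figure D4:**
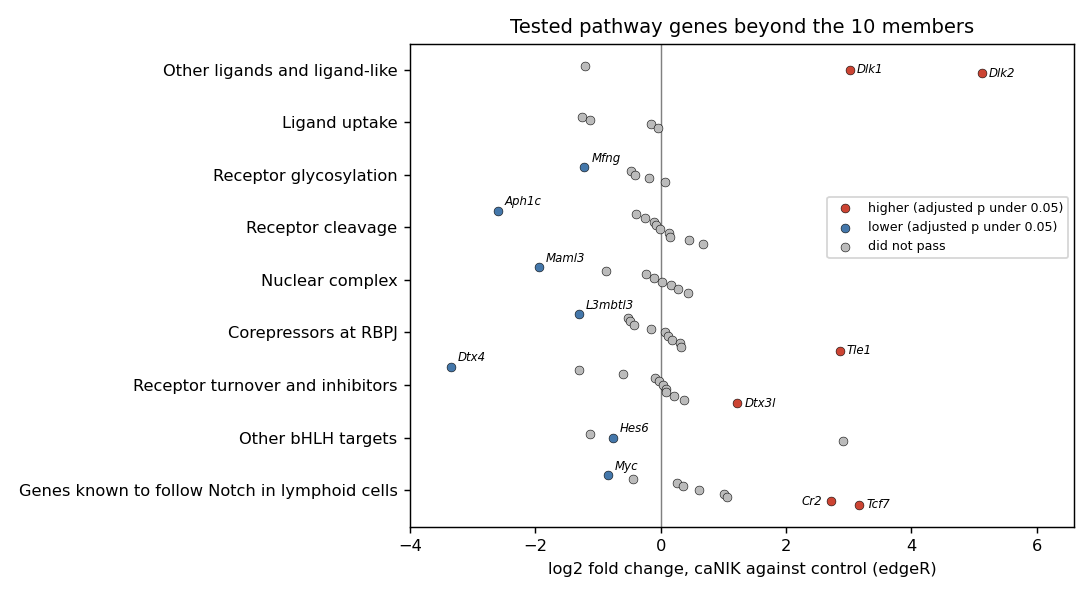
Log2 fold change, caNIK against control, of each tested pathway gene beyond the 10 members, in rows by list, with red for higher, blue for lower and grey for genes that did not pass. The 6 red points are Dlk1, Dlk2, Tle1, Dtx3l, Tcf7 and Cr2, the 7 blue points include Dtx4, Aph1c and Maml3, and the 51 others are grey.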

How the data were processed

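RNA-seq was compared in 2 control and 2 caNIK HSPC libraries, grouped by their titles. The authors deposited whole-number read counts for 24015 gene symbols in each library, per the file headers. Per the submitters' processing notes, the build was mm9, and the tools listed without role are DESeq2 1.10.1, featureCounts 1.5.0, TopHat2 2.1.0 and FastQC. No source used here gives the annotation or the strand setting. In GENCODE M21, transcripts on the opposite strand overlap exons of Notch1, Notch3, Dll1, Dll4 and Nrarp, and a transcript on the same strand overlaps those of Notch2. Separate animals are not named as their source, so the p-values reflect the spread of these samples only, and that spread may be technical.

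Tests used edgeR 4.0.16 under R 4.3.3: filterByExpr by group (14191 genes kept), TMM factors, glmQLFit with group as the only term and the two-sided glmQLFTest, with Benjamini-Hochberg adjustment over all kept genes. SE comes from the F statistic. CPM uses library sizes summed over kept genes. Per-length levels divide CPM by the union of exons in GENCODE M21 basic (GRCm38), which may differ from the exons counted. Differences between replicates used log2 CPM with a prior count of 2. Alternatives were DESeq2 1.42.0, limma-voom (limma 3.58.1), other factors and filters, the replicate number as a block, and each library left out. The promoter windows and synonyms came from RefSeq tables of GRCm38.p6, whose coordinates differ from mm9.

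The 10 genes and all lists were chosen with earlier results of these data known. From each pathway list the genes past the threshold were named, at most 4, and Rbpj, Dll3, Hes5, Hey1 and Dtx1 in any case. Other pathway and marker genes were picked for naming with their values known.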

Additional observations from a re-analysis of the deposited data

How the results depend on the processing

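Of the 10 genes, Dll1, Dll4 and Nrarp passed in all 12 alternatives and Notch3 and Notch4 in none. Without control replicate 1 and without caNIK replicate 1 the log2 fold change of Notch3 turned to -0.13 and -0.03 (0.94 without control replicate 2), and that of Dtx1 turned to 0.67 without control replicate 1 (-1.27 without control replicate 2). With each library left out in turn, members called higher numbered 2 to 4 and lower 1 to 4, other pathway genes 5 to 8 and 6 to 11, and all genes 1655 to 1968 and 858 to 1387. The number of members called lower was 2 with every gene of at least 1 read tested and 3 with the replicate number as a block. Deviations of the libraries from their group means correlated at 0.21 across genes between equal replicate numbers, but the labels do not say that these pair the samples. With that block Notch1, Jag2 and Rbpj also passed (edgeR adjusted p = 0.04, 0.045 and 0.046), 9 other pathway genes were higher and 12 lower, and of all genes 2494 were higher and 1766 lower. With few counts in control (Dll1, Dll4, Jag1, Notch4), depth limits the size of a fold change. The cause of these shifts was not tested.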
